A study of Homo sapiens with 9 samples.

Results

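DNA replication and G1/S genes are the genes whose products license replication origins, unwind and copy the DNA, supply its nucleotides and switch the cell from G1 to S phase. The set held 52 genes, chosen by name for these roles and sorted by complex or role, of 60676 genes in the count table. Earlier results of these data were known when the list was made. Its counts beside those of all tested genes therefore describe the list and are not a test of it. All 52 passed the filter on low counts that left 15500 genes for testing. RNA was measured in A549 cells, an established human lung adenocarcinoma line, after transduction with a lentiviral hairpin. Hairpins shLITATS1-1 and shLITATS1-2 are directed against the long non-coding RNA LITATS1, and shNT has no target; each was measured in 3 libraries. All groups received a construct and were kept for 2 days, and then for 3 more days under 1 ng/mL puromycin before RNA was taken. The libraries are described as biological replicates, but separate transductions are not stated. A p-value here therefore sets a difference only against the spread among these libraries.

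Origins are licensed in G1, when the origin recognition complex, CDC6 and CDT1 load the MCM2-7 helicase, and are fired in S phase, when CDC45 and the GINS complex turn that helicase into a moving fork with DNA polymerases, the sliding clamp PCNA and the single-strand binding protein RPA. Transcription of most of these genes peaks around the G1/S boundary, and E2F transcription factors are known for driving them. Kinases, that of cyclin E among them, release these factors by phosphorylating the retinoblastoma protein. In proliferating cells many of these transcripts are more abundant in or near S phase, though their spread over phases in A549 was not measured here. In bulk RNA, fewer cells in that phase and less RNA per cell cannot be told apart.

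The libraries were alike in depth, with 24556848 to 24671296 fragments each and 19610514 to 19989652 on genes. LITATS1 itself had 3.79, 3.21 and 3.003 CPM with shLITATS1-1, 3.33, 3.03 and 2.69 CPM with shLITATS1-2, and 14.04, 14.5 and 16.9 CPM with shNT, where CPM is the count scaled to a common library total with TMM, a factor that sets the bulk of genes equal between libraries. Its level was 22.1% of shNT with shLITATS1-1 (adjusted p = 1.05e-27) and 19.99% with shLITATS1-2 (adjusted p = 3.78e-29, quasi-likelihood test of edgeR, Benjamini-Hochberg adjusted over all tested genes). Epithelial markers, the keratins among them, summed to 9052 to 9225 CPM with shLITATS1-1, 5213 to 5527 CPM with shLITATS1-2 and 5518 to 5802 CPM with shNT, none of 6 at 0. Most of each sum came from KRT7, KRT8 and KRT18, and the 6 did not move alike. KRT8, KRT18, KRT7, KRT19, CDH1 and EPCAM were at 173%, 190%, 117%, 136%, 94.0% and 116% of shNT with shLITATS1-1. With shLITATS1-2 they were at 90.8%, 83.5%, 110%, 200%, 72.6% and 107%. EPCAM was called with neither hairpin, and CDH1 only with shLITATS1-2. Immune markers summed to 1.84 to 3.06 CPM with shLITATS1-1, 5.01 to 6.04 CPM with shLITATS1-2 and 1.23 to 1.64 CPM with shNT, with CD3E at 0 in every group and PTPRC at 0 with shLITATS1-2 and shNT. The 1 immune marker that was tested, CD14, rose 1.78-fold with shLITATS1-1 and 3.81-fold with shLITATS1-2. Endothelial and fibroblast markers summed to at most 0.673 CPM. The mitochondrial share of gene fragments was 10.2% ± 0.123 with shLITATS1-1, 7.97% ± 0.235 with shLITATS1-2 and 12.2% ± 0.224 with shNT (SD, n = 3 each), and the share of fragments not aligned was 5.56% ± 0.0181, 5.43% ± 0.0568 and 3.79% ± 0.116 in the same order. The part of these differences in the results was not tested.

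Replication genes fell with both hairpins in every complex of the fork, whereas the cyclin E gene CCNE1 of the G1/S switch rose. Together the 52 genes took 0.299% ± 0.00219 of gene fragments with shLITATS1-1, 0.327% ± 0.00521 with shLITATS1-2 and 0.446% ± 0.00482 with shNT (SD, n = 3 each). On the TMM scale their summed level was 3102, 3121 and 3086 CPM in the shLITATS1-1 libraries, 3097, 3141 and 3037 CPM in the shLITATS1-2 libraries and 4535, 4619.6 and 4539 CPM in the shNT libraries. The highest library of either LITATS1 hairpin thus lay far below the lowest shNT library.

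With shLITATS1-1 against shNT, 49 of the 52 genes fell and 2 rose at an adjusted p under 0.05, while 30.5% of all tested genes fell and 30.5% rose. The gene not called was GINS3. The median log2 fold change of the 52 genes was -0.59, or 66.6% of the shNT level, beside -0.0070 over all tested genes. In 48 of them every shLITATS1-1 library was below every shNT library, which held for 32% of all tested genes. At least 2-fold lower were 5 genes, MCM2, CDC45, DSCC1, CHTF18 and TK1, against 2.54% of all tested genes.

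With shLITATS1-2 against the same 3 shNT libraries, 48 genes fell and 1 rose, while 28.9% of all tested genes fell and 27.8% rose. POLA2, CCNE2 and CDC25A were not called. The median log2 fold change was -0.54, or 68.9% of the shNT level, beside -0.0040 over all tested genes. Every shLITATS1-2 library was below every shNT library in 48 genes, against 30.2% of all tested genes. UNG and RPA2 were the 2 genes at least 2-fold lower, a size that 2.17% of all tested genes reached. Since both comparisons use the same shNT libraries, their values are given side by side and the hairpins are compared with each other directly. Every shLITATS1-1 library was below every shLITATS1-2 library in 22 of the 52 genes and above in 13. Of the 15500 tested genes 5040 and 4916 did the same. Hairpin groups that stand apart from each other are thus common among all genes. The largest adjusted p among the genes called was 0.0099 (POLD3) with shLITATS1-1 and 0.000417 (CCNE1) with shLITATS1-2.

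**Figure D1:**
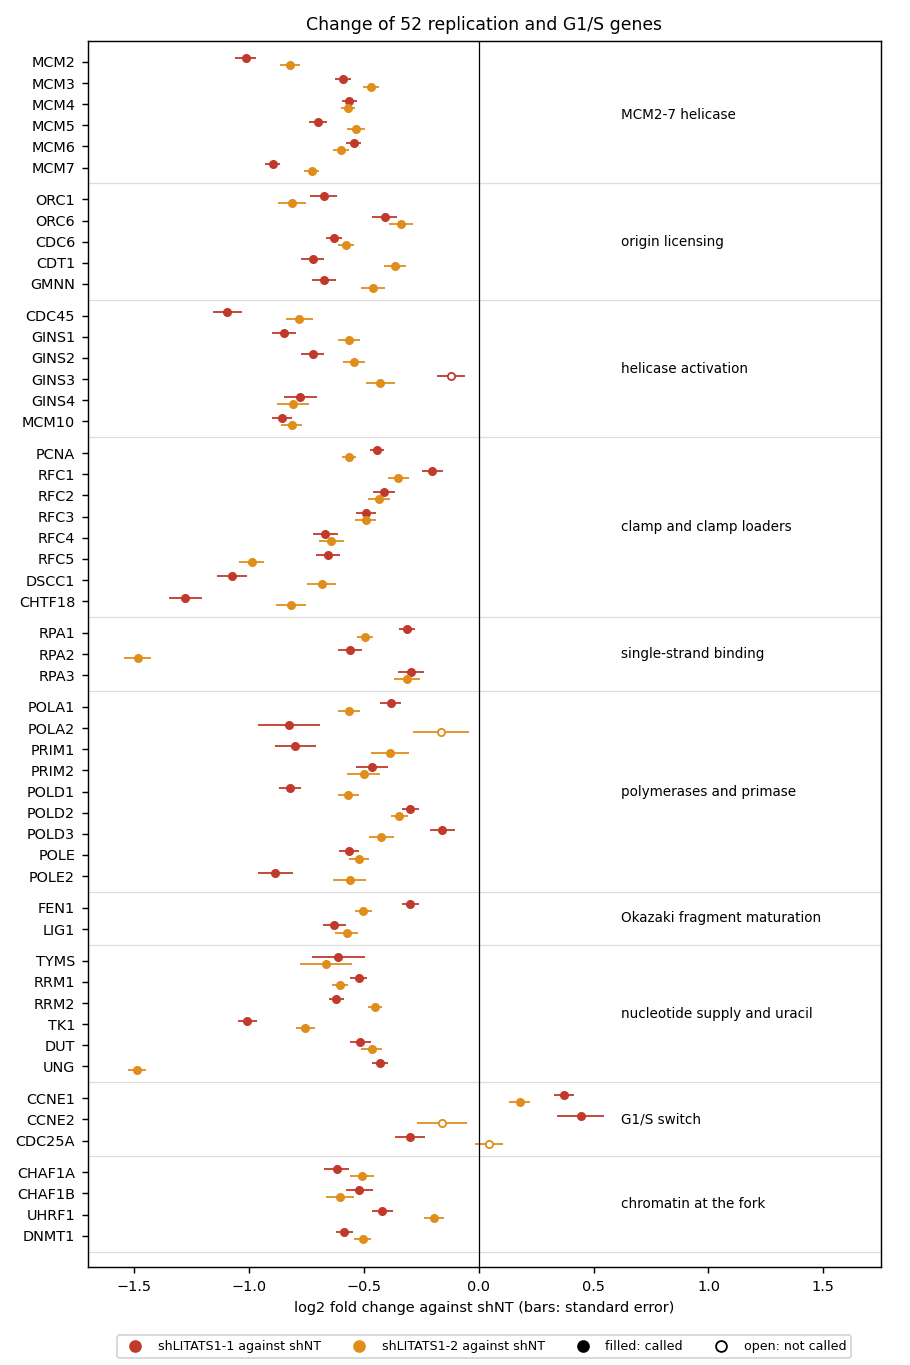
Log2 fold change against shNT (horizontal axis) of the 52 genes, grouped by complex or role, for shLITATS1-1 (red) and shLITATS1-2 (orange); bars are standard errors and filled points passed the test. Points lie left of 0 in every group except the G1/S switch, where CCNE1 lies right of 0 with both hairpins.

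**Figure D2:**
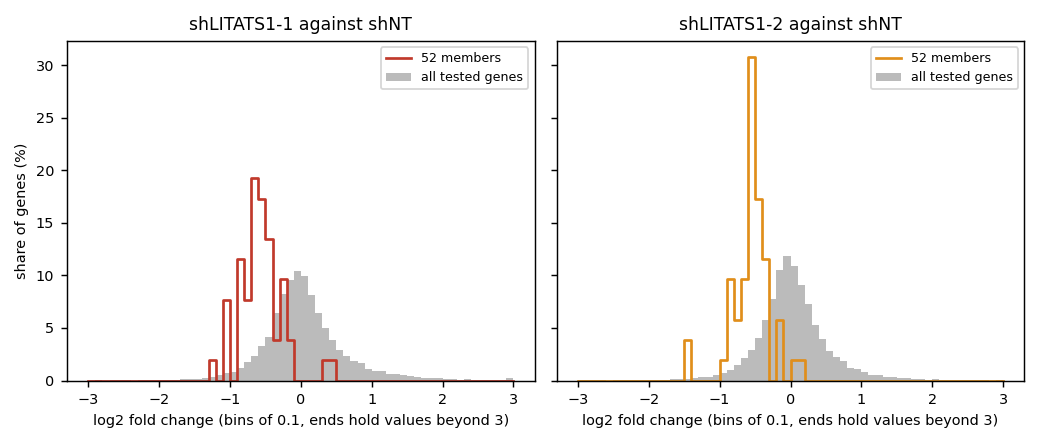
Share of genes (vertical axis, percent) by log2 fold change against shNT (horizontal axis, bins of 0.1) for the 52 genes (coloured outline) and all 15500 tested genes (grey), with shLITATS1-1 on the left and shLITATS1-2 on the right. The grey distribution is centred near 0, and the 52 genes are centred at -0.59 and -0.54.

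Promoters of these genes are shown for the E2F-type letters in them. The genes were chosen for roles that E2F factors are known for driving, so a high share of matches was likely in advance. RefSeq promoter windows of 300 bases, from 250 before to 50 after the start, were found for 44 of the 52 genes on GRCh38.p14; MCM4, MCM5, GINS4, DSCC1, RPA2, RPA3, POLD3 and CCNE2 had none. Windows were searched on both strands for TTTCCCGC, TTTGGCGC, TTTCGCGC and TTTGCCGC, which can overlap each other. At least 1 of these was present in 23 of the 44 genes, or 52.3%, beside 6.47% of 11289 tested genes and 3.99% of all 27305 genes with a window. The CCAAT box (CCAAT) was present in 61.4% of the 44 genes and 42.5% of tested genes, and the CHR element (TTTGAA or TTCGAA) in 9.09% and 15.5%. Median GC content of the windows was 66.2% for the 44 genes and 64.7% for tested genes.

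The stretches below are examples from genes with a match, and none is from the RPA genes, FEN1 or LIG1. CDC25A, which was not called with shLITATS1-2, is among them. The stretches are read 5′ to 3′ on the strand of the gene, with the matched letters in capitals. They come from chr3:127598402-127598431 (plus strand) for MCM2, chr2:135876515-135876603 (minus strand) for MCM6, chr17:40287875-40287904 (plus) for CDC6, chr20:25407667-25407696 (plus) for GINS1, chr20:5126663-5126692 (minus) for PCNA, chr14:49688201-49688230 (minus) for POLE2, chr18:657603-657632 (plus) for TYMS, chr12:109098098-109098127 (plus) for UNG, chr19:10194937-10194966 (minus) for DNMT1 and chr3:48188418-48188517 (minus) for CDC25A.
MCM2: cgtgaaccactTTTCGCGCGAAAcctggtt
MCM6: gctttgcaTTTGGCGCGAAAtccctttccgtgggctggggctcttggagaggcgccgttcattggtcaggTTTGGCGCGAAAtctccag
CDC6: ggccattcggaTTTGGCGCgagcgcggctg
GINS1: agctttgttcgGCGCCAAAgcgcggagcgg
PCNA: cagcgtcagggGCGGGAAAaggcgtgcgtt
POLE2: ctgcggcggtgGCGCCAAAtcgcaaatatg
TYMS: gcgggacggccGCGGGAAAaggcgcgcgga
UNG: gagggaggtttTTTGCCGCgaaaagaccac
DNMT1: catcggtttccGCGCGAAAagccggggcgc
CDC25A: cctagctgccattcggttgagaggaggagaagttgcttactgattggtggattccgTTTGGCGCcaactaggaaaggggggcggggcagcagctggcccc

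The MCM6 stretch holds TTTGGCGC near both ends, each copy overlapping TTTCGCGC of the opposite strand, and the capitals of MCM2 read the same on both strands. CDC25A carries the same TTTGGCGC letters as CDC6, which fell with both hairpins. The median log2 fold change was -0.59 in the 23 genes with a match and -0.62 in the 21 without with shLITATS1-1, and -0.54 and -0.51 with shLITATS1-2. CDC45, CHTF18 and TK1, among the genes that fell most with shLITATS1-1, and CCNE1, which rose, have none of the E2F-type strings in the window. Other forms of E2F site, and sites outside the window, were not searched for, so these genes may still carry one. A match describes the window only, and a part of E2F factors in the changes was not tested.

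The MCM2-7 helicase, the ring that unwinds DNA ahead of the fork, fell in all 6 subunits with both hairpins. Its summed level was 710.4, 706 and 697 CPM with shLITATS1-1, 742, 761 and 731 CPM with shLITATS1-2, and 1127, 1159 and 1129 CPM with shNT. MCM2 (chr3:127598223-127622436, plus strand) had 41.2, 41.5 and 44.4 CPM with shLITATS1-1, 47.8, 49.6 and 47.7 CPM with shLITATS1-2, and 83.5, 87.8 and 85.2 CPM with shNT. The shLITATS1-1 libraries were lowest and those of shLITATS1-2 slightly above them, and neither overlapped shNT. Its log2 fold change was -1.01 (SE 0.04498) with shLITATS1-1 and -0.82 (SE 0.0435) with shLITATS1-2. MCM6 had 120.1, 119 and 122 CPM with shLITATS1-1, 115, 118 and 114 CPM with shLITATS1-2, and 179.8, 174 and 172 CPM with shNT, with the LITATS1 hairpin libraries together below shNT. It changed by -0.54 and -0.60, and MCM3 by -0.59 and -0.47, so each was the least lowered subunit with 1 hairpin. MCM3 had 101, 104 and 105 CPM with shLITATS1-1, 113, 112 and 111 CPM with shLITATS1-2, and 154, 160.2 and 151 CPM with shNT, again with no overlap between LITATS1 hairpin and shNT libraries. MCM7 fell by 0.90 and 0.73 on the log2 scale, MCM5 by 0.70 and 0.53 and MCM4 by 0.56 and 0.57 with shLITATS1-1 and shLITATS1-2. Per kb of exon the subunits ranged in shNT cells from 17.4 CPM per kb for MCM2 to 68.8 CPM per kb for MCM7. The length joins the exons of all annotated transcripts of a gene, so such differences between genes may partly reflect the annotation. About 23.6% of MCM2 exon bases lie under genes of the opposite strand, and counts there are uncertain because the strand setting of the counting is not given in the sources used here.

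Origin licensing genes also fell in all 5 cases with both hairpins, with medians of -0.67 and -0.46. CDT1 (chr16:88803213-88809258, plus strand), which brings the helicase to the origin, had 31.7, 31.1 and 30.7 CPM with shLITATS1-1, 40.6, 40.2 and 38.98 CPM with shLITATS1-2, and 51.4, 52.3 and 50.5 CPM with shNT. All 3 groups stood apart, with shLITATS1-1 lowest and shNT highest. It changed by -0.72 and -0.37, and the hairpins differed by -0.36 (95% interval -0.46 to -0.25, adjusted p = 1.66e-08). ORC1, the largest subunit of the origin recognition complex, had 22.9, 23.3 and 23.5 CPM with shLITATS1-1, 19.999, 22.97 and 20.4 CPM with shLITATS1-2, and 37.1, 37.9 and 36.3 CPM with shNT. Both LITATS1 hairpin groups lay well below shNT. Its log2 fold changes were -0.67 and -0.81. ORC6, the smallest subunit, had 33.9, 32.6 and 31.9 CPM with shLITATS1-1, 34.8, 33.5 and 35.2 CPM with shLITATS1-2, and 44.01, 40.5 and 46.1 CPM with shNT. Again neither hairpin group reached shNT. ORC6 was the least lowered of the 5, at -0.41 and -0.34. Other subunits of this complex are outside the set. Of these, ORC2 changed by 0.037 and -0.10, neither called, and ORC3 by -0.19 and -0.10, the second not called. ORC4 changed by -0.29 and -0.40 and ORC5 by -0.35 and -0.13, all called. CDC6, the loader's ATPase, fell by 0.63 and 0.58 on the log2 scale, and GMNN, the CDT1 inhibitor that prevents a second licensing, by 0.67 and 0.46. An inhibitor and its target thus both had lower transcript levels.

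Helicase activation genes had, relative to shNT, the lowest sum of any group with shLITATS1-1, at 58.9%, and were at 63.4% with shLITATS1-2. CDC45 (chr22:19479459-19520612, plus strand), which joins the ring at firing, had 18.6, 17.7 and 18.8 CPM with shLITATS1-1, 22.3, 22.3 and 23.8 CPM with shLITATS1-2, and 36.7, 40.5 and 40.3 CPM with shNT. All groups stood apart, shLITATS1-1 lowest. With shLITATS1-1 it was at 46.9% of shNT, a log2 fold change of -1.09 (SE 0.0615), and with shLITATS1-2 at -0.78. MCM10, a firing factor, had 43.8, 44.3 and 47.9 CPM with shLITATS1-1, 46.8, 47.7 and 45.5 CPM with shLITATS1-2, and 84.6, 81.2 and 80.3 CPM with shNT. It changed by -0.86 and -0.81, with no difference called between hairpins (95% interval -0.14 to 0.055). The 4 GINS subunits differed among themselves. GINS1 changed by -0.85 and -0.56, GINS2 by -0.72 and -0.54 and GINS4 by -0.78 and -0.81, all called. GINS3 had 26.7, 24.5 and 24.1 CPM with shLITATS1-1, 20.2, 20.8 and 19.9 CPM with shLITATS1-2, and 25.98, 27.998 and 27.95 CPM with shNT. With shLITATS1-1 the libraries overlapped those of shNT in part and the change of -0.12 was not called (95% interval -0.24 to 0.0024, adjusted p = 0.0841), whereas with shLITATS1-2 it fell by 0.43. With shLITATS1-1 it was called lower when libraries were scaled by size alone (-0.14, adjusted p = 0.0463), with a correction for GC content (-0.14, adjusted p = 0.0312), without shLITATS1-1 replicate 1 (-0.17) and without shNT replicate 1 (-0.15). The direct comparison put GINS3 higher with shLITATS1-1 by 0.31 (adjusted p = 2.9e-05).

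The sliding clamp and its loaders fell in all 8 cases with each hairpin, and with shLITATS1-1 they spanned the widest range of any group, from -1.28 to -0.20. PCNA, the clamp that tethers polymerases to DNA, had 269, 266 and 269.6 CPM with shLITATS1-1, 249, 245 and 245 CPM with shLITATS1-2, and 355, 371 and 368 CPM with shNT. The shLITATS1-2 libraries were lowest and no groups overlapped. PCNA had the highest level per length of the 52 genes, 248 ± 5.68 CPM per kb with shNT (SD, n = 3), and changed by -0.44 and -0.56. CHTF18 (chr16:788046-800737, plus strand), which loads PCNA together with DSCC1 in an alternative loader used in sister chromatid cohesion, had 13.3, 13.2 and 12.7 CPM with shLITATS1-1, 18.6, 16.4 and 18.9 CPM with shLITATS1-2, and 29.9, 35.2 and 29.8 CPM with shNT. The groups did not overlap, and shLITATS1-1 was lowest. Its change of -1.28 (SE 0.0722) with shLITATS1-1 was the lowest of the 52 genes, and it was -0.82 with shLITATS1-2. DSCC1, its partner, had 16.9, 15.4 and 15.2 CPM with shLITATS1-1, 21.4, 20.03 and 20.96 CPM with shLITATS1-2, and 32.5, 36.3 and 31.3 CPM with shNT, a change of -1.07 and -0.68. Both partners were lower with shLITATS1-1 than with shLITATS1-2, CHTF18 by 0.46 (adjusted p = 6.57e-07) and DSCC1 by 0.39 (adjusted p = 2.81e-06) on the log2 scale.

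In the RFC loader RFC1 is the large subunit, and the small subunits RFC2 to RFC5 are shared with the CHTF18 loader. RFC5 had 29.7, 32.2 and 30.03 CPM with shLITATS1-1, 25.02, 25.1 and 22.9 CPM with shLITATS1-2, and 47.03, 48.1 and 49.7 CPM with shNT. Here shLITATS1-2 was lowest, again without overlap. RFC5 fell by 0.66 with shLITATS1-1 and 0.99 with shLITATS1-2, and was higher with shLITATS1-1 by 0.33 (adjusted p = 1.67e-06). RFC1 had 55.8, 59.8 and 55.8 CPM with shLITATS1-1, 50.2, 51.2 and 53.3 CPM with shLITATS1-2, and 66.3, 68.8 and 61.97 CPM with shNT. It was the least lowered of the group, at -0.20 and -0.35. The difference between hairpins was 0.15, and that call was lost without shLITATS1-1 replicate 2 (0.12, adjusted p = 0.0548), with the GC correction (0.065) and with library size alone (0.017). RFC2, RFC3 and RFC4 changed by -0.41, -0.49 and -0.67 with shLITATS1-1 and by -0.43, -0.49 and -0.64 with shLITATS1-2.

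RPA, the trimer that coats single-stranded DNA, fell in all 3 subunits with both hairpins and its middle subunit was lowest with shLITATS1-2. RPA2 (chr1:27891524-27914746, minus strand) had 37.2, 33.8 and 36.3 CPM with shLITATS1-1, 20.05, 18.2 and 18.4 CPM with shLITATS1-2, and 50.2, 53.7 and 54.3 CPM with shNT. The 3 groups are far apart, and shLITATS1-2 is lowest. Its log2 fold change was -0.56 (SE 0.0524, adjusted p = 3.49e-15) with shLITATS1-1 and -1.48 (SE 0.0575, adjusted p = 9.87e-35) with shLITATS1-2, and the hairpins differed by 0.92 (95% interval 0.80 to 1.05). With shLITATS1-2 it ranked the 94th lowest of 15500 tested genes by log2 fold change. RPA1, the large subunit, had 139, 132 and 137 CPM with shLITATS1-1, 122, 119 and 119 CPM with shLITATS1-2, and 172, 169.5 and 166 CPM with shNT, in 3 groups that did not overlap. RPA3, the small one, had 28.6, 26.7 and 27.8 CPM with shLITATS1-1, 27.3, 28.3 and 26.6 CPM with shLITATS1-2, and 32.6, 35.01 and 34.3 CPM with shNT. For RPA3 the LITATS1 hairpin groups overlapped each other below shNT. The log2 fold changes were -0.31 and -0.49 for RPA1, and they were -0.29 and -0.31 for RPA3. Per kb of exon, RPA2 CPM stood at 0.713 ± 0.0159 of RPA1 with shLITATS1-1, 0.427 ± 0.0183 with shLITATS1-2 and 0.849 ± 0.0499 with shNT (SD, n = 3 each). The same ratio of RPA3 to RPA1 was 0.345, 0.388 and 0.342 in those groups.

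**Figure D3:**
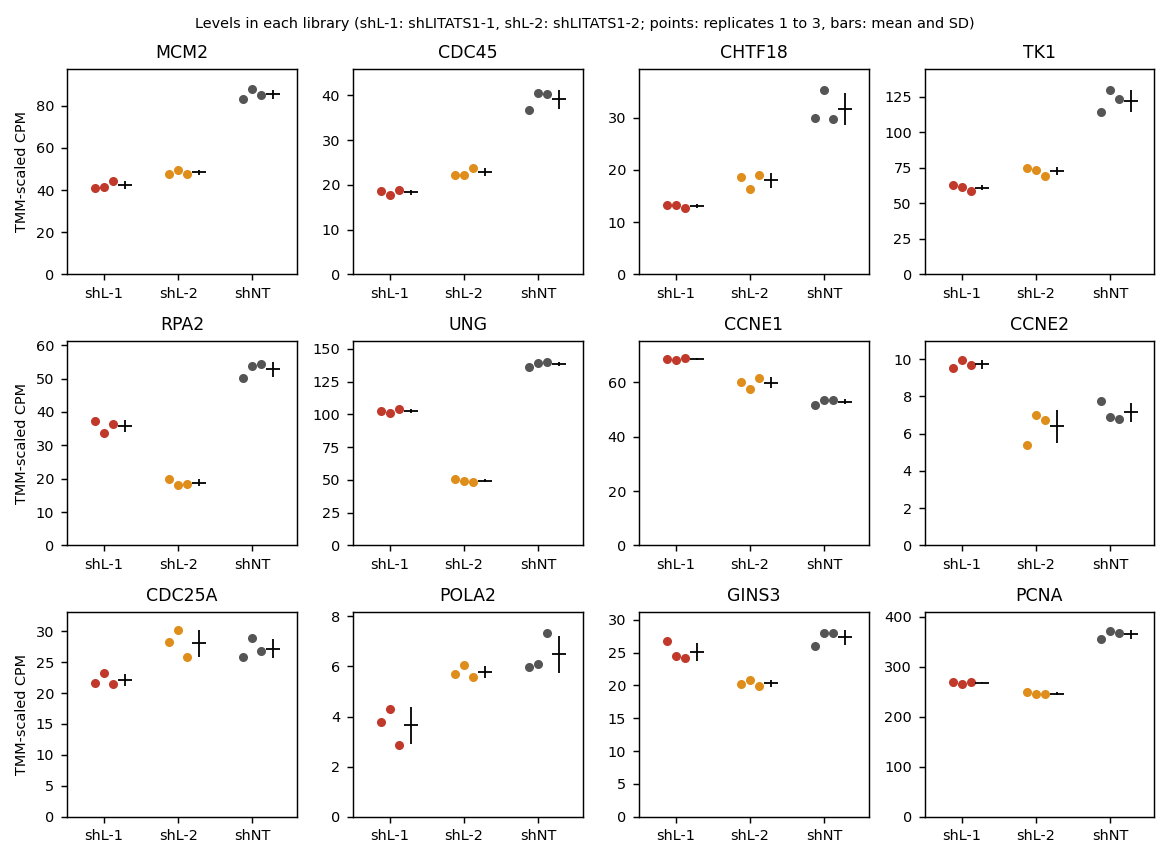
TMM-scaled CPM (vertical axis, from 0) of 12 genes in each library, by group (horizontal axis); points are replicates and crosses are mean and SD. MCM2, CDC45, CHTF18 and TK1 are lowest with shLITATS1-1, RPA2 and UNG with shLITATS1-2, and CCNE1 is highest with shLITATS1-1.

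All 9 polymerase and primase genes fell with shLITATS1-1, and 8 of the 9 did with shLITATS1-2. The group's sum was 72.4% and 72.7% of shNT. POLE2, the second subunit of the leading-strand polymerase epsilon, had 13.4, 11.7 and 11.96 CPM with shLITATS1-1, 16.6, 15.1 and 14.8 CPM with shLITATS1-2, and 22.4, 21.6 and 24.6 CPM with shNT. All groups stood apart. It changed by -0.88 and -0.56, beside -0.56 and -0.52 for the catalytic subunit POLE. POLD1, the catalytic subunit of the lagging-strand polymerase delta, had 42.3, 39.1 and 42.7 CPM with shLITATS1-1, 49.3, 50.8 and 48.1 CPM with shLITATS1-2, and 68.3, 75.4 and 75.7 CPM with shNT, lowest with shLITATS1-1. Its change was -0.82 and -0.57. The accessory subunit POLD2 changed by -0.30 and -0.35. POLD3, another accessory subunit, had 35.4, 42.3 and 37.8 CPM with shLITATS1-1, 31.6, 33.1 and 31.5 CPM with shLITATS1-2, and 44.6, 40.8 and 43.5 CPM with shNT. Its shLITATS1-1 libraries overlapped those of shNT, and its change of -0.16 (adjusted p = 0.0099) lost its call in DESeq2 (adjusted p = 0.0622), without shLITATS1-1 replicate 1 (-0.10) and without shNT replicate 1 (-0.13), while with shLITATS1-2 it was -0.42.

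Polymerase alpha and primase lay the first nucleotides of each fragment, and their accessory subunit POLA2 differed between hairpins. POLA2 (chr11:65261762-65305589, plus strand) had 3.79, 4.32 and 2.84 CPM with shLITATS1-1, 5.7003, 6.07 and 5.58 CPM with shLITATS1-2, and 5.99, 6.09 and 7.35 CPM with shNT. The shLITATS1-1 libraries lay below all others, and those of shLITATS1-2 overlapped shNT. With shLITATS1-1 it fell by 0.83 (SE 0.135, adjusted p = 2.1e-07), whereas with shLITATS1-2 its change of -0.16 was not called (95% interval -0.40 to 0.076, adjusted p = 0.25). The direct difference was -0.66 (95% interval -0.93 to -0.39, adjusted p = 2.32e-05). POLA2 was the least abundant of the 52 genes, with as few as 54 fragments in a library, and 35.1% of its exon bases are shared with another gene of the same strand, so its count is uncertain. POLA1, the catalytic subunit, changed by -0.38 and -0.56, PRIM1 by -0.80 and -0.39 and PRIM2 by -0.46 and -0.50.

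Okazaki fragment maturation rests on FEN1, which cuts the flap, and LIG1, which seals the nick, and both fell. FEN1 had 93.4, 93.8 and 90.7 CPM with shLITATS1-1, 80.7, 81.2 and 79.3 CPM with shLITATS1-2, and 112, 116 and 114 CPM with shNT. LIG1 had 39.5, 35.5 and 33.3 CPM with shLITATS1-1, 38.1, 37.02 and 37.3 CPM with shLITATS1-2, and 56.7, 56.3 and 54.4 CPM with shNT. No library of a LITATS1 hairpin reached the shNT range for either gene. FEN1 changed by -0.30 and -0.50, LIG1 by -0.63 and -0.57.

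Genes of nucleotide supply and uracil removal fell in all 6 cases with both hairpins, and their sum was 65.7% of shNT with shLITATS1-1 and 62.8% with shLITATS1-2. TK1 (chr17:78174075-78187233, minus strand), the thymidine salvage kinase, had 62.6, 61.3 and 58.95 CPM with shLITATS1-1, 75.2, 73.2 and 69.4 CPM with shLITATS1-2, and 114, 129.7 and 123 CPM with shNT. It was lowest with shLITATS1-1, without overlap. TK1 fell by 1.01 (SE 0.0425) and 0.75 (SE 0.04098). RRM2, the regulated subunit of ribonucleotide reductase, had 185, 194 and 194 CPM with shLITATS1-1, 209, 223 and 212 CPM with shLITATS1-2, and 301, 292 and 288 CPM with shNT, in the same order of groups. It changed by -0.62 and -0.45, beside -0.52 and -0.60 for its partner RRM1. TYMS, the thymidylate synthase, had 9.57, 7.64 and 11.2 CPM with shLITATS1-1, 10.3, 8.47 and 8.603 CPM with shLITATS1-2, and 16.5, 12.1 and 14.7 CPM with shNT, a change of -0.61 and -0.66. Its replicates were wide apart, though neither hairpin group reached shNT, and 46.6% of its exon bases lie under genes of the opposite strand. DUT, which clears dUTP from the pool, changed by -0.51 and -0.47.

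UNG (chr12:109097574-109110992, plus strand), the glycosylase that takes uracil out of DNA, had the largest difference between hairpins of the 52 genes. It had 103, 101 and 104 CPM with shLITATS1-1, 50.7, 49.01 and 48.2 CPM with shLITATS1-2, and 136, 139 and 139.8 CPM with shNT. The shLITATS1-1 libraries lay between the other 2 groups, nearer to shNT. The log2 fold change was -0.43 (SE 0.0361, adjusted p = 3.45e-17) with shLITATS1-1 and -1.49 (SE 0.0392, adjusted p = 9.58e-45) with shLITATS1-2. The hairpins differed by 1.06 (95% interval 0.98 to 1.14, adjusted p = 3.04e-35). Per kb of exon, UNG stood at 3.09 times DUT with shLITATS1-1, 1.43 times with shLITATS1-2 and 2.92 times with shNT. With shLITATS1-2 its log2 fold change was the 91st lowest of 15500 tested genes.

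The 3 G1/S switch genes did not fall together. CCNE1 (chr19:29811898-29824308, plus strand) encodes cyclin E1, whose kinase starts S phase, and had 68.3, 67.97 and 68.8 CPM with shLITATS1-1, 60.2, 57.5 and 61.5 CPM with shLITATS1-2, and 51.7, 53.3 and 53.4 CPM with shNT. All shLITATS1-1 libraries were highest and all shNT libraries lowest. CCNE1 rose by 0.37 (SE 0.0441, adjusted p = 2.12e-11) with shLITATS1-1 and 0.18 (SE 0.0444, adjusted p = 0.000417) with shLITATS1-2. Between hairpins it differed by 0.19 (adjusted p = 7.07e-05), a call lost when libraries were scaled by size alone (0.063, adjusted p = 0.191). CCNE2, the second cyclin E, had 9.52, 9.96 and 9.69 CPM with shLITATS1-1, 5.41, 7.03 and 6.73 CPM with shLITATS1-2, and 7.74, 6.91 and 6.78 CPM with shNT. The shLITATS1-1 libraries were above all others, and those of shLITATS1-2 overlapped shNT. It rose by 0.44 (adjusted p = 0.000131) with shLITATS1-1, and its log2 fold change of -0.16 with shLITATS1-2 was not called (95% interval -0.38 to 0.058, adjusted p = 0.214). The direct difference of 0.61 passed (adjusted p = 5.99e-07), but 37.1% of CCNE2 exon bases lie under genes of the opposite strand.

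CDC25A, the phosphatase that activates the cyclin E kinase, had 21.6, 23.2 and 21.4 CPM with shLITATS1-1, 28.2, 30.1 and 25.8 CPM with shLITATS1-2, and 25.8, 28.9 and 26.8 CPM with shNT. It fell by 0.30 with shLITATS1-1 (adjusted p = 5.42e-05). With shLITATS1-2 its libraries overlapped those of shNT and the log2 fold change was 0.046 (95% interval -0.077 to 0.17, adjusted p = 0.545), although scaling by library size alone gave a call at 0.16. The hairpins differed by -0.35 (adjusted p = 3.32e-06). In shNT cells the 3 genes were at 20.7, 1.62 and 6.5995 CPM per kb of exon for CCNE1, CCNE2 and CDC25A.

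Genes that restore chromatin behind the fork fell in all 4 cases with each hairpin. CHAF1A, the large subunit of the CAF-1 histone chaperone, had 27.1, 28.9 and 29.2 CPM with shLITATS1-1, 30.2, 31.4 and 30.3 CPM with shLITATS1-2, and 43.1, 42.6 and 45.01 CPM with shNT. CHAF1B, its partner, had 26.5, 26.4 and 24.6 CPM with shLITATS1-1, 22.99, 26.9 and 23.2 CPM with shLITATS1-2, and 37.3, 36.3 and 37.4 CPM with shNT. For both, every LITATS1 hairpin library was below shNT. The log2 fold changes were -0.62 and -0.51 for CHAF1A and -0.52 and -0.60 for CHAF1B. DNMT1, which copies DNA methylation onto the daughter strand, changed by -0.58 and -0.50. UHRF1, which recruits DNMT1, had 51.9, 58.5 and 56.4 CPM with shLITATS1-1, 66.3, 67.9 and 60.8 CPM with shLITATS1-2, and 74.1, 77.2 and 71.6 CPM with shNT. The groups did not overlap, and shLITATS1-1 was lowest. It was the least lowered, at -0.42 and -0.19, and the shLITATS1-2 call was lost when libraries were scaled by size alone (-0.080, adjusted p = 0.117).

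**Figure D4:**
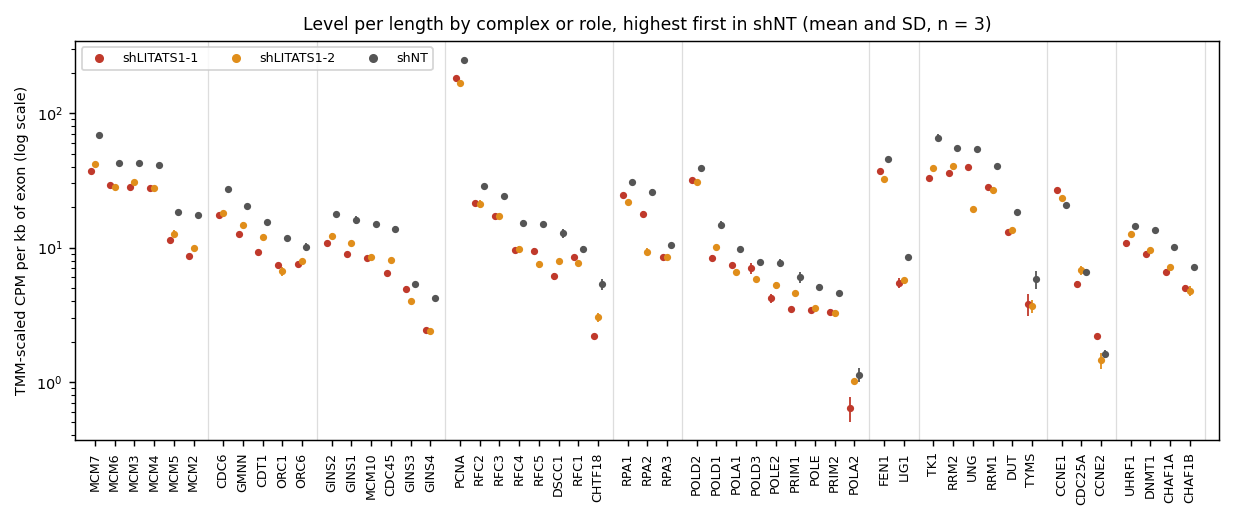
TMM-scaled CPM per kb of exon (vertical log axis) of the 52 genes by complex or role, highest first in shNT; points are means and bars SD of 3 libraries for shLITATS1-1 (red), shLITATS1-2 (orange) and shNT (grey). PCNA is highest at 248 CPM per kb with shNT and POLA2 lowest at 1.13, and the grey point lies above both others in most genes but not in CCNE1, where it is lowest.

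Of a list of 30 other replication genes 29 were tested, and CHTF8 was too low. This list too was made with earlier results of these data known, so it is no independent check. With shLITATS1-1, 26 of the 29 genes fell, 0 rose and the median log2 fold change was -0.47. Of all tested genes 30.5% fell and 30.5% rose. With shLITATS1-2, 25 fell and 2 rose, POLD4 and POLE4, also with a median of -0.47, while 28.9% of all tested genes fell and 27.8% rose. The lowest with shLITATS1-1 were RNASEH2A at -1.83, which had only 2 to 21 fragments per library, the flap nuclease DNA2 at -0.97 and the firing factor TICRR at -0.95. With shLITATS1-2 the lowest were RNASEH2A at -1.04, WDHD1 at -0.75 and the histone chaperone ASF1B at -0.75. The highest with shLITATS1-1 were POLD4 at 0.19, ORC2 at 0.037 and DONSON at -0.021, none of them called. With shLITATS1-2 POLD4, the smallest subunit of polymerase delta, rose by 0.28 (adjusted p = 0.0431). POLE4, a small histone-fold subunit of polymerase epsilon, fell by 0.28 with shLITATS1-1 and rose by 0.19 with shLITATS1-2, and the hairpins differed by -0.46 (adjusted p = 5.06e-10). With shLITATS1-2 ORC2 was at -0.10 (adjusted p = 0.0912).

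Set against each other directly, the hairpins differed in 31 of the 52 genes. With shLITATS1-1 against shLITATS1-2, 19 genes were lower and 12 higher, beside 30.7% and 30.2% of all tested genes, and the median log2 fold change was -0.041, beside -0.015. The shares of 52 are near those of all genes, and the counts by complex that follow are too small to be read as a pattern. Lower were 4 of 6 MCM subunits and 2 of 5 licensing genes, with none higher, and 3 of 6 helicase activation genes, with GINS3 higher, while 2 of 3 RPA genes were higher and none lower. Of these calls, those of MCM2 and MCM5 were lost with the GC correction (adjusted p = 0.0540 and 0.0552) and that of RPA1 with library size alone (adjusted p = 0.180). At 0.5 or more apart were UNG at 1.06, RPA2 at 0.92, POLA2 at -0.66 and CCNE2 at 0.61. Scaling by library size alone moved the median of all tested genes to -0.15 and gave 32 lower and 6 higher. For the other 21 genes no difference was called, which does not show that the hairpins act alike.

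**Figure D5:**
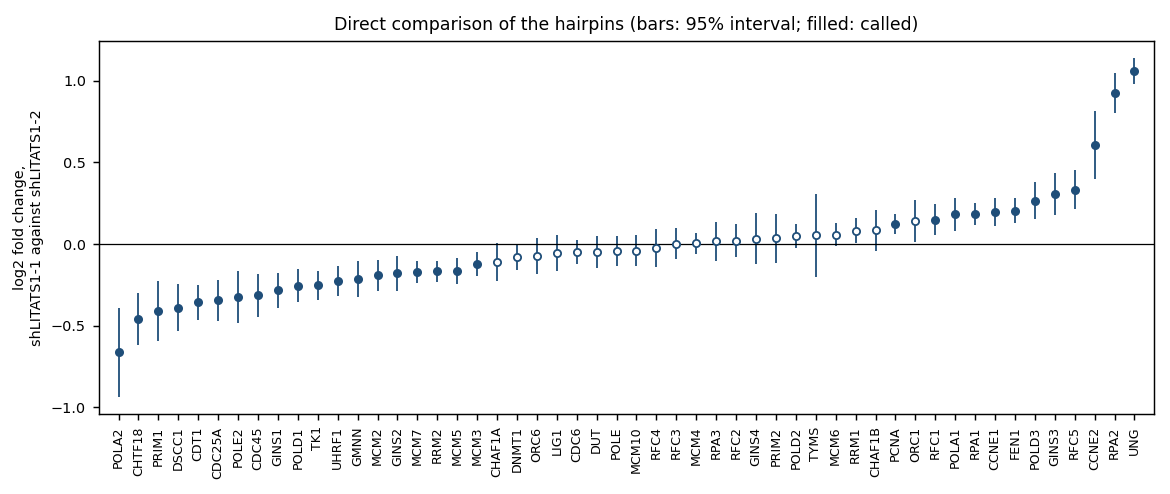
Log2 fold change of shLITATS1-1 against shLITATS1-2 (vertical axis) for each of the 52 genes (horizontal axis, sorted); bars are 95% intervals and filled points passed the test. POLA2 is at the low end at -0.66, and UNG and RPA2 are at the high end at 1.06 and 0.92.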

How the data were processed

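RNA of 9 libraries, 3 per hairpin, was used as raw fragment counts for each gene, which the authors deposited in 1 table without normalization. The submitters' processing notes name the build GRCh38 and the tools HTSeq 0.12.4, STAR 2.7.5a, cutadapt 2.10 and FastQC. How strand was set in the counting, and which annotation release it used, is not given in the sources used here. Counts of 10 members that share over 10% of their exon bases with another gene are therefore uncertain (MCM2, GINS3, GINS4, RFC5, POLA2, PRIM1, TYMS, RRM2, DUT and CCNE2). Named pseudogenes of 12 members held at most 4 fragments. Fragments that aligned to more than 1 place, 1.82% to 2.12% per library, were in no gene's count. The low pseudogene counts therefore cannot show that these members lost no fragments to such copies. Lines that name no gene held 19.0% to 20.3% of fragments and were left out. Among them were fragments ambiguous between genes. These averaged 10.2% of all fragments with shLITATS1-1, 10.3% with shLITATS1-2 and 10.8% with shNT. Their effect on the counts of overlapping members was not tested. Groups and replicate numbers came from the titles. Replicate pairs differed more than sampling noise (chi-square per degree of freedom 1.47 to 2.72 over 9 pairs).

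Genes were kept by filterByExpr with a minimum count of 10. One edgeR 4.0.16 quasi-likelihood fit (R 4.3.3, TMM, robust) took all 9 libraries, with 6 residual degrees of freedom. It shares information on spread between genes, so very small p-values and the intervals rest on that sharing as well as on each gene's libraries. Tests were two-sided, with Benjamini-Hochberg adjustment over 15500 genes, and called at 0.05. Levels per length divide TMM-scaled CPM by exon length from GENCODE 29, with the exons of all transcripts of a gene merged. This length can exceed that of the transcript in the cells, so levels and ratios per length between genes depend on the annotation. The procedure was tested on simulated data. Alternatives were DESeq2 1.42.0, its size factors in edgeR, library size alone, no filter, a filter of 50 counts, a block for the replicate number, only the 6 libraries compared, a threshold of 0.01, corrections for GC content and length, and the omission of each library.

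Members and lists were chosen with earlier results of these data known. Values in every library are given for LITATS1, for the lowest and highest member of each role against shNT, for members called higher, and for members whose hairpin effects differ by at least 0.5 and pass the direct test; of the other replication genes up to 3 lowest and 3 highest per comparison with shNT are named. DSCC1, PCNA, RPA1 and TYMS were added with their values seen.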

Additional observations from a re-analysis of the deposited data

Results flagged for a closer look

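For 5 genes the direct test between the hairpins passed and the effects of the hairpins either had opposite signs or lay at least 0.5 apart on the log2 scale. UNG was higher with shLITATS1-1 than with shLITATS1-2 by 1.06, RPA2 by 0.92 and CCNE2 by 0.61. POLA2 differed by -0.66, lower with shLITATS1-1, at the lowest level of the 52 genes. CDC25A differed by -0.35, with -0.30 against shNT with shLITATS1-1 and an uncalled 0.046 with shLITATS1-2. LITATS1 itself did not differ detectably between the hairpins (0.14, 95% interval -0.17 to 0.45, adjusted p = 0.438 in the same edgeR fit).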

How the results depend on the processing

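Under the alternatives run, 48 to 50 of the 52 genes fell with shLITATS1-1 and 47 to 48 with shLITATS1-2. Scaling by library size alone moved the median of all tested genes with shLITATS1-2 to 0.11 and that of the 52 genes to -0.42, a distance of -0.53 on either scale, and gave 2967 lower and 6058 higher genes, against 4485 and 4302. It put 2 of the 52 genes higher with shLITATS1-2. Between hairpins it gave 32 of the 52 genes lower and 6 higher, and 6912 lower and 3293 higher over all genes, against 4755 and 4684. This scaling moved the median of all genes between hairpins by -0.13, and 12 of the 52 genes turned sign with it, among them those called on either scale, MCM4 (-0.13), PCNA (-0.0079), RFC2 (-0.11), RFC3 (-0.13) and POLD2 (-0.083). Without 1 library at a time, 8848 to 9612 genes were called with shLITATS1-1, 8133 to 8799 with shLITATS1-2 and 8772 to 9670 between hairpins, and among the 52 genes 49, 48 and 19 to 20 were lower and 2, 1 and 11 to 15 higher. Replicate numbers did not pair the libraries (correlations of same-numbered deviations -0.0612 to 0.0355); with the replicate number as a block 9295, 8630 and 9264 genes were called, and among the 52 genes 49, 48 and 19 were lower and 2, 1 and 12 higher. Between hairpins, the calls of MCM2, MCM5, POLD1 and RFC1 were lost with the GC correction and those of PCNA, RFC1, RPA1, POLA1, FEN1 and CCNE1 with library size alone. Among the 52 genes, 17 were lower and 13 higher between hairpins with the GC correction, 20 and 15 with the length correction, and 19 and 14 with DESeq2's size factors or only the 6 libraries compared. Between hairpins, calls were gained for ORC1, RRM1 and CHAF1B without shLITATS1-2 replicate 2, for RRM1 also without shNT replicate 1 or 2, and for DNMT1 without shLITATS1-1 replicate 2 or shLITATS1-2 replicate 3. The cause of these moves was not tested. With 3 libraries a group and members of as few as 54 fragments, low genes are measured less precisely, as the interval of -0.40 to 0.076 for POLA2 with shLITATS1-2 shows.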
